A study of Mus musculus with 18 samples.

Results

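The 10 Wnt ligand genes Wnt2, Wnt2b, Wnt4, Wnt5a, Wnt5b, Wnt6, Wnt9a, Wnt10a, Wnt11 and Wnt16 were followed through 6 groups of sorted mouse dermal cells, out of 18193 genes measured. The list of genes was given, and it was chosen with earlier results of these data known. Each gene was read from probe sets annotated to that gene alone. Of their 17 probe sets, the one with the highest mean over the 18 arrays stood for each gene, and the others, held by 5 of the genes, served as a check. RNA of each group was hybridized to 3 Affymetrix mouse genome arrays, and values are log2 expression after RMA, a method that summarizes the probes of a probe set.

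In R26mTmG reporter mice, cells fluoresce red until Cre recombines the reporter, after which they and their descendants are green. En1Cre acts in cells that express Engrailed-1, and Wnt1Cre in cells that express Wnt1, which include the neural crest. From En1Cre; R26mTmG mice, EPF (GFP positive, RFP negative) and ENF (RFP positive, GFP negative) cells were sorted out of dorsal dermis. The same genotype gave the GFP positive cells called Dorsal and Ventral, each from the dermis so named. Cranial cells from cranial dermis and Oral cells from oral mucosa were GFP positive cells of Wnt1Cre; R26mTmG mice. The sort of every group left out cells positive for DAPI, EpCAM, CD45, CD31, Tie2 or what the labels spell Tie119, and no mouse was treated. The sample labels give postnatal day 56 for EPF and ENF and day 30 for the other 4 groups, called the site groups here, while the protocol text puts EPF and ENF at day 30. The labels do not say that the arrays of a group came from separate mice or pools, so p-values measure the spread between arrays only, and the number of arrays limits the precision.

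Wnt proteins are secreted, lipid-modified ligands. With a Frizzled receptor and the co-receptors Lrp5 or Lrp6 they stabilize beta-catenin, and through Ror2, Ryk or planar polarity proteins they can act without it. In skin, Wnt signals between epidermis and dermis are needed for hair follicles to form and act in the fate of dermal fibroblasts.

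Fibroblast markers were high on all 18 arrays: the mean of 12 genes lay between 11.56 and 13.39, and 0 of them were near background in any group. A gene is called near background in a group whose mean does not exceed the lower quartile of all gene values on its arrays (4.44 to 4.63). The markers of keratinocytes and hair follicles varied within the EPF and ENF groups, with a mean over 15 of 16 listed genes of 7.29, 9.36 and 9.61 on the 3 ENF arrays. On the EPF arrays it was 7.91, 5.02 and 6.43, against 4.92 to 5.35 on the site arrays. The mean of 10 endothelial markers was also higher in EPF and ENF than in the site groups (5.70 to 6.37 against 4.83 to 5.06). Among them Tek, Plvap and Kdr were higher in both, while Pecam1 and Cdh5 were about level. Of these 10 genes, 4 were near background in ENF, 5 in EPF and Cranial, and 6 in Oral, Dorsal and Ventral. The mean of 6 of 8 Schwann cell markers was higher too (6.90 to 7.32 against 5.52 to 6.24), with Egfr and Mbp higher in both. Sox10 of that list was not, at 6.59 in ENF and 6.38 in EPF against 6.43 to 6.84. The mean of the fibroblast markers themselves was also higher (13.01 to 13.39 against 11.56 to 12.71). The part of these markers in the results below was not tested. Mural cell markers were at 8.88 to 9.05 in EPF and 7.10 to 7.17 in ENF. The mean of 6 of 8 adipocyte markers separated the sites, at 5.58 to 6.61 in Dorsal and 5.39 to 6.11 in Ventral, with 2 of the 6 near background, and 4.98 to 5.06 in Cranial and 4.92 to 5.07 in Oral, with 3 near background. Xist was at 4.98 in ENF 1 and 5.20 in EPF 2 and between 10.48 and 12.13 on the other arrays. Ventral 1 stood apart from the other Ventral arrays, with the highest mural level of its group (8.97 against 8.03 and 8.07) and the lowest fibroblast level (11.56). Dorsal 3 stood apart too, with the highest fibroblast level of its group (12.66 against 12.17 and 12.15) and the lowest mural level (7.58 against 8.13 and 8.02). Dorsal 1 was close to Dorsal 2 on both lists. Its mean of 10 leukocyte markers, 4 of them near background in Dorsal, was lower (5.38 against 6.11 in Dorsal 2 and 5.99 in Dorsal 3). Dorsal 1 and Ventral 1, left out together below, were noticed by their Wnt5a and Wnt4 values. In bulk RNA, a different share of a cell type and a different RNA level per cell cannot be told apart.

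**Figure D1:**
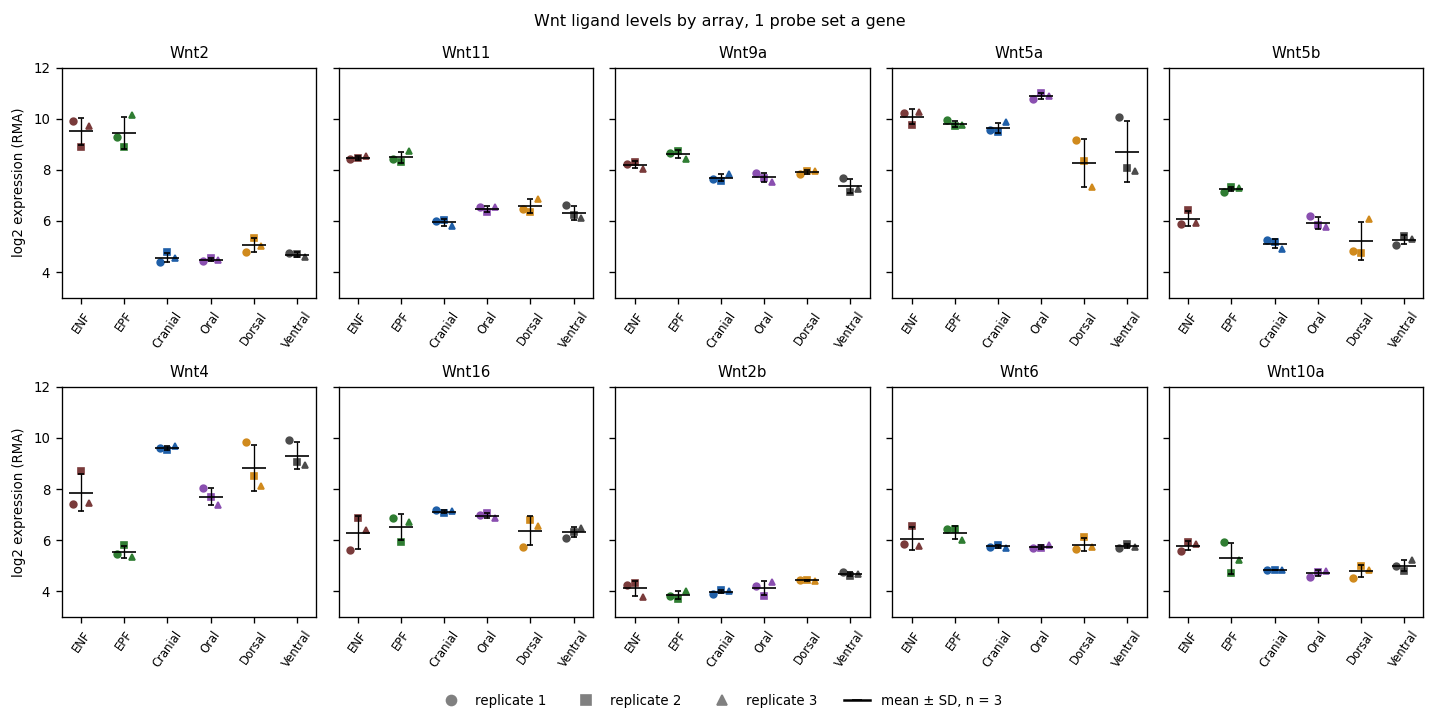
Log2 expression (RMA) of each of the 10 Wnt ligands on the 18 arrays, 1 panel a gene and 1 symbol an array, with the mean and SD of 3 arrays per group. Wnt2 and Wnt11 lie high in ENF and EPF, Wnt5a is highest in Oral, and Wnt4 is lowest in EPF.

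The promoter sequences of 3 ligands are shown because Wnt2 and Wnt11 had the same contrast between EPF and ENF and the site groups, while Wnt4 had the opposite one between EPF and Dorsal. Each is the 250 bases before the annotated start in RefSeq, build GRCm38.p6, 5′ to 3′ on the gene's strand. The Wnt2 window is chr6:18030446-18030695 (minus strand), that of Wnt11 chr7:98834862-98835111 (plus strand, the first of 2 annotated starts), and that of Wnt4 chr4:137277385-137277634 (plus strand). Capitals mark the motifs searched on both strands: the TATA box TATAAA, the GC box GGGCGG, the TCF/LEF core CTTTGA and the AP-1 motif TGANTCA.
Wnt2: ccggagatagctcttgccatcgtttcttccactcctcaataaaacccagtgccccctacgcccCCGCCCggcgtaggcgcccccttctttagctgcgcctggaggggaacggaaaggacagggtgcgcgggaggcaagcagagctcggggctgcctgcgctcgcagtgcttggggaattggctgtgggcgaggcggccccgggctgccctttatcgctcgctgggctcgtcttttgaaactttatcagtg
Wnt11: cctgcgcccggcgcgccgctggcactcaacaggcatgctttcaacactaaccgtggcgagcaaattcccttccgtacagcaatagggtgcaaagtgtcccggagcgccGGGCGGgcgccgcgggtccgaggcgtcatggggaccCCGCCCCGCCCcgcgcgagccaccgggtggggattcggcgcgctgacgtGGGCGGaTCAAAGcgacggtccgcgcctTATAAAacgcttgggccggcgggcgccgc
Wnt4: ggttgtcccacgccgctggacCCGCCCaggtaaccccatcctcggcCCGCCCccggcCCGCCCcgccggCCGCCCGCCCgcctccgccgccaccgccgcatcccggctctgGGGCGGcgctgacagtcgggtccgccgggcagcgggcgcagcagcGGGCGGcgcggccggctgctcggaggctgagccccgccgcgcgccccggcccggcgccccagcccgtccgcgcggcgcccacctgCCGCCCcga

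Wnt11 had TATAAA 29 bases before the start, the TCF/LEF core as TCAAAG 50 bases before it, and 4 GC boxes. In Wnt2 the search found 1 GC box, 187 bases before the start, and 0 of the other motifs. The Wnt4 window held 8 GC boxes, some of them overlapping, and 85.2% G and C, against 70.8% in Wnt11, 63.6% in Wnt2 and a median of 52.4% over 32851 windows. Of all windows, 12.4% held TATAAA, 32.7% the GC box, 13.8% the TCF/LEF core and 6.75% the AP-1 motif. The GC box was the 1 motif found in the windows of both Wnt2 and Wnt11. The window of Wnt9a, whose EPF and ENF arrays also lay above the site arrays, is not shown. It was close to that of Wnt4, with 84.4% G and C, 5 GC boxes and 0 of the other motifs. The windows of Wnt2b and Wnt6 held 80.8% and 79.6% G and C. Windows were found for 8 of the 10 ligands, all but Wnt5a and Wnt10a. A match is a description of the letters and not a binding site.

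Wnt2, a ligand of the beta-catenin branch, was abundant on every EPF and ENF array and low in all 4 site groups. Its log2 level was 9.89, 8.89 and 9.73 in ENF, and 9.28, 8.90 and 10.14 in EPF, in replicate order. It was 4.79, 5.33 and 5.03 in Dorsal, 4.76, 4.73 and 4.57 in Ventral, 4.39, 4.77 and 4.55 in Cranial, and 4.43, 4.54 and 4.47 in Oral. The EPF and ENF arrays overlapped each other, and the lowest of them stood 3.56 above the highest site array. The group means fell in the order ENF (9.51 ± 0.54, SD, n = 3), EPF (9.44 ± 0.64), Dorsal (5.05 ± 0.27), Ventral (4.69 ± 0.10), Cranial (4.57 ± 0.19) and Oral (4.48 ± 0.05, near background). Of the neighbours in this order, ENF and EPF overlapped, as did Ventral and Cranial, and Cranial and Oral.

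EPF and Dorsal were both labelled as green cells of dorsal dermis of the same genotype, and 6 of the 10 ligands differed between them, 4 higher and 2 lower in EPF, against 16.8% of all genes (10.9% higher, 5.94% lower). Adjusted p-values are from limma with Benjamini-Hochberg adjustment over all genes. The median difference of the 10 ligands was 0.60 and that of all genes 0.01. The 10 were chosen with earlier results of these data known, so the count is a description. Of the 9 other Wnt ligands measured, 0 were called here, with a median difference of 0.07. The labelled age differs between EPF and Dorsal, so age, array set and cell preparation cannot be told apart. Of the genes called here, 64.6% were higher in EPF, and 47.5% after quantile normalization of the gene table.

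In that comparison Wnt2 rose by 4.39 ± 0.33 (SE), or 21.0-fold (adjusted p = 0.000532), in EPF, with no overlap of the arrays. Wnt2 was also lower in Cranial than in Dorsal (-0.48 ± 0.14, adjusted p = 0.0416) and in Oral than in Dorsal (-0.57 ± 0.14, adjusted p = 0.0210). Each of these site calls held in 9 of 15 settings, and both rest on levels close to background.

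Wnt11, which can act without beta-catenin, followed the same contrast at a smaller size. It was at 8.42, 8.45 and 8.55 in ENF and 8.44, 8.32 and 8.73 in EPF. The site arrays held 6.48, 6.37 and 6.88 in Dorsal, 6.57, 6.34 and 6.53 in Oral, 6.63, 6.24 and 6.11 in Ventral, and 6.01, 6.05 and 5.80 in Cranial. The EPF and ENF arrays were all at least 1.44 above the site arrays, and Dorsal, Oral and Ventral overlapped, with Cranial lowest. Wnt11 rose by 1.92 ± 0.20, or 3.79-fold, from Dorsal to EPF (adjusted p = 0.00168), and fell by 0.62 ± 0.17 from Dorsal to Cranial (adjusted p = 0.0276), a call kept in 10 of 15 settings.

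Wnt9a was also higher on the EPF and ENF arrays than on the site arrays, at a still smaller size. Its level was 8.65, 8.74 and 8.44 in EPF, 8.25, 8.31 and 8.05 in ENF, and from 7.15 to 7.96 on the 12 site arrays. All EPF and ENF arrays were above all site arrays, by 0.09 at the closest. It rose by 0.69 ± 0.15 from Dorsal to EPF (adjusted p = 0.0240), but the call held in 6 of 14 settings, and the other Wnt9a probe set, dim everywhere, differed by -0.08 (adjusted p = 0.858). Wnt2, Wnt11 and Wnt9a were the 3 of 10 ligands whose EPF and ENF arrays all lay above the site arrays, against 8.64% of all genes, and 0 of 10 lay all below, against 5.05%.

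Wnt5a, the main ligand of the branch that acts through Ror and planar polarity proteins, was highest in oral mucosa. It was at 10.78, 11.00 and 10.87 in Oral, 9.55, 9.48 and 9.86 in Cranial, 9.18, 8.37 and 7.31 in Dorsal, and 10.08, 8.06 and 7.97 in Ventral. ENF held 10.23, 9.76 and 10.25, and EPF 9.93, 9.70 and 9.75. The Oral arrays were above every other array. Ventral 1 lay well above the other Ventral arrays, while the 3 Dorsal arrays were spread, Dorsal 1 highest and Dorsal 3 lowest. The order of means was Oral (10.89 ± 0.11), ENF (10.08 ± 0.28), EPF (9.79 ± 0.12), Cranial (9.63 ± 0.20), Ventral (8.70 ± 1.19) and Dorsal (8.29 ± 0.94), and below Oral each group overlapped the next.

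Wnt5a was higher in Oral than in Dorsal by 2.60 ± 0.54, or 6.06-fold (adjusted p = 0.00820), a call kept in all 16 settings. It was higher in Oral than in Ventral by 2.18 ± 0.54, or 4.53-fold (adjusted p = 0.0213), kept in 11 of 16 settings. Against Cranial the difference of 1.26 (95% interval 0.06 to 2.45) missed the threshold (adjusted p = 0.560), although the arrays did not overlap, as in 25.9% of all genes. The fit shares 1 spread over the 4 site groups. The Wnt5a SD was 0.11 in Oral and 0.20 in Cranial, against 0.94 in Dorsal and 1.19 in Ventral. The difference from Cranial was called in 3 of 16 settings, with array weights, on only the 6 arrays compared, and without Dorsal 1 and Ventral 1 (1.26, adjusted p = 0.00804). The moderated F test over the 4 site groups called Wnt5a (adjusted p = 0.0200), and leaving out any 1 Oral array ended that call.

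Since Dorsal 1 and Ventral 1 had been noticed by their Wnt5a and Wnt4 values, leaving both out is a choice made on the quantity tested and can lower p-values by itself. Without them the Wnt5a difference was 3.05 between Oral and Dorsal (adjusted p = 1e-05) and 2.87 between Oral and Ventral (adjusted p = 1.71e-05). The differences from Cranial to Dorsal (1.34, adjusted p = 0.112) and from Cranial to Ventral (0.92, adjusted p = 0.252) became 1.79 (adjusted p = 0.000327) and 1.61 (adjusted p = 0.000748). Leaving out Dorsal 1 alone gave an adjusted p of 0.0240 for Cranial against Dorsal, and leaving out Ventral 1 alone 0.0294 for Cranial against Ventral. Leaving out Dorsal 2 or Dorsal 3 alone gave no call for Cranial against Dorsal. Each of these 2 differences was called in 3 of 16 settings.

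Of the 3 other Wnt5a probe sets, 1437673_at gave 2.53 for Oral against Dorsal (adjusted p = 0.00824) and 2.55 for Oral against Ventral (adjusted p = 0.00874). Probe set 1448818_at gave 1.59 (adjusted p = 0.113) and 1.57 (adjusted p = 0.125), with Dorsal 1 at 9.52 and Ventral 1 at 9.50, in reach of the Oral arrays (9.54 to 9.78). The same probe set did not carry the Cranial excess over Dorsal (-0.08). Probe set 1456976_at was dim and gave 0.07 and 0.10.

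**Figure D2:**
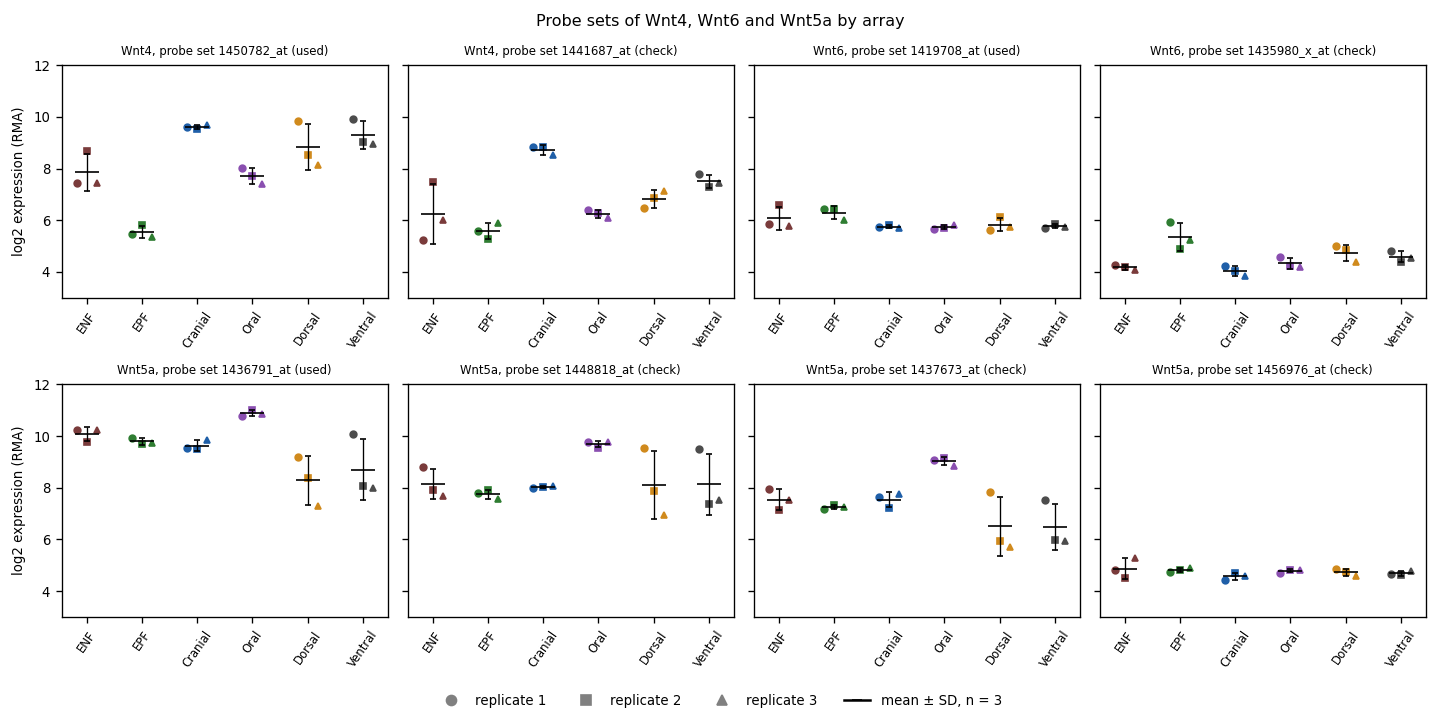
Log2 expression (RMA) of the probe sets of Wnt4, Wnt6 and Wnt5a on the 18 arrays, with the mean and SD of 3 arrays per group; the panel titles mark the probe set used and those kept as a check. Oral has the highest mean in 3 of the 4 Wnt5a probe sets, and the 2 Wnt4 probe sets differ in how far Cranial stands above Dorsal.

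Wnt5b, a close relative of Wnt5a, was highest in EPF. Its level was 7.15, 7.31 and 7.31 in EPF, 5.90, 6.42 and 5.94 in ENF, and 6.19, 5.83 and 5.75 in Oral. It was 5.07, 5.42 and 5.29 in Ventral, 5.26, 5.16 and 4.91 in Cranial, and 4.83, 4.76 and 6.08 in Dorsal, where the third array stood apart. The EPF arrays overlapped no other group, and ENF overlapped Oral.

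Wnt5b was higher in EPF than in Dorsal by 2.03 ± 0.36, or 4.08-fold (adjusted p = 0.0120), and the other Wnt5b probe set gave 1.37 (adjusted p = 0.00260). Leaving out EPF 2 or EPF 3 moved the adjusted p to 0.0541 and 0.0575. Between EPF and ENF the difference of 1.17 ± 0.19, or 2.25-fold, did not pass (adjusted p = 0.0637), although the groups did not overlap. In the site groups the other probe set was higher in Oral than in Dorsal (0.79, adjusted p = 0.00997), where the one used gave 0.70 (adjusted p = 0.139), and 1.13 without Dorsal 3 (adjusted p = 0.00137).

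Wnt4, a ligand that can act with or without beta-catenin, was lowest in EPF and, of the site groups, lowest in Oral. Its level was 5.46, 5.80 and 5.36 in EPF, 7.43, 8.69 and 7.46 in ENF, and 8.03, 7.71 and 7.39 in Oral. It was 9.59, 9.54 and 9.68 in Cranial, 9.91, 9.04 and 8.95 in Ventral, and 9.86, 8.52 and 8.14 in Dorsal. EPF lay below every other array. Cranial, Ventral and Dorsal overlapped in this order of means (9.60 ± 0.07, 9.30 ± 0.53 and 8.84 ± 0.90). Dorsal overlapped ENF (7.86 ± 0.72), and ENF overlapped Oral (7.71 ± 0.32), but Dorsal and Oral did not overlap.

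Wnt4 fell by 3.30 ± 0.44, or 9.83-fold, from Dorsal to EPF (adjusted p = 0.00402), a call kept in all 14 settings, and its other probe set, 1441687_at, fell by 1.25 (adjusted p = 0.0167). Between Oral and Cranial, the 2 sites of Wnt1Cre mice, 1 of the 10 ligands was called, lower in Oral, against 1.14% of all genes (0.731% lower), and it was Wnt4. It was 1.90 ± 0.39, or 3.73-fold, lower in Oral (adjusted p = 0.0490), a call lost when any 1 Oral or Cranial array was left out, with an adjusted p of up to 0.206. It was also 1.59 ± 0.39, or 3.01-fold, lower in Oral than in Ventral (adjusted p = 0.0202), lost without Oral 2, Oral 3 or Ventral 1 (adjusted p = 0.0674, 0.0781 and 0.0693). The F test over the site groups called Wnt4 (adjusted p = 0.0199), in 17 of 21 settings.

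The other Wnt4 probe set separated the sites more sharply and in part differently. It was at 8.84, 8.83 and 8.51 in Cranial, 7.79, 7.29 and 7.42 in Ventral, 6.46, 6.86 and 7.14 in Dorsal, and 6.39, 6.28 and 6.08 in Oral. On it the difference from Cranial to Oral was -2.48 (adjusted p = 5.64e-05) and that from Ventral to Oral -1.25 (adjusted p = 0.00151). Cranial was 1.91 above Dorsal (adjusted p = 0.000149) and 1.23 above Ventral (adjusted p = 0.00167), differences that on the probe set used were 0.77 (adjusted p = 0.200) and 0.31 (adjusted p = 0.604). Leaving out Dorsal 1 and Ventral 1 was a choice made on Wnt5a and Wnt4 values and can lower p-values by itself. Without them, the probe set used gave 1.28 (adjusted p = 0.000337) and 0.61 (adjusted p = 0.0235). Dorsal 1 was the highest Dorsal array on the probe set used (9.86) and the lowest on the other (6.46).

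EPF and ENF, the green and red cells of the same dermis, differed in 0 of the 10 ligands by limma, against 0.308% of all genes. At an unadjusted p under 0.05 the count was 3, Wnt4, Wnt5b and Wnt9a, against 10.8% of all genes, and arrays of the same 3 did not overlap, against 17% of all genes. Wnt4 came closest, 2.32 ± 0.34 (4.99-fold) lower in EPF (95% interval -3.11 to -1.52, adjusted p = 0.0501), and it was called in 6 of 16 settings, among them the fits without ENF 2 (-1.90, adjusted p = 0.0237) and without ENF 3 (-2.52, adjusted p = 0.0437). The other Wnt4 probe set gave -0.67 (adjusted p = 0.697), with ENF 1 at 5.22, below every EPF array (5.26 to 5.89). Wnt9a was 0.41 higher in EPF (adjusted p = 0.406). Wnt2 (-0.07, interval -0.93 to 0.80) and Wnt11 (0.02, interval -0.36 to 0.40) showed no detectable difference.

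Keratinocyte markers moved with Wnt4 in this comparison, with 1 of the 15 genes near background in ENF and 3 in EPF. Krt14, a keratin of basal keratinocytes, was at 5.80, 9.81 and 9.54 in ENF and 6.30, 4.48 and 5.29 in EPF. Trp63, a transcription factor of those cells, was at 8.61, 9.78 and 8.58 in ENF and 5.12, 4.42 and 5.01 in EPF. ENF 1 had a lower marker mean than EPF 1 (7.29 against 7.91) and a higher Wnt4 level on the probe set used (7.43 against 5.46). On the other Wnt4 probe set ENF 1 was the lower, at 5.22 against 5.57. With the marker mean as a covariate, added after the values were seen, the Wnt4 difference was -2.22 (adjusted p = 0.424). On 6 arrays this fit cannot separate marker level from group, since the marker mean was mostly higher in ENF. It called 2 of all 18193 genes, against 56 without the covariate. Without ENF 1 and EPF 2, the arrays low in Xist, the Wnt4 difference was -2.66 (adjusted p = 0.219). Skeletal muscle markers, a list of 10, also moved, at 5.70 to 6.58 in ENF with 2 near background and 4.71 to 4.96 in EPF with 6 near background. The mean of 11 of 12 dermal papilla and sheath markers ran the other way, at 6.11 or lower on the ENF arrays with 3 near background and 6.76 to 7.49 in EPF with 0, as did the mural markers given above. The part of each of these lists in the Wnt4 difference was not tested, and the keratinocyte covariate could not decide it.

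**Figure D3:**
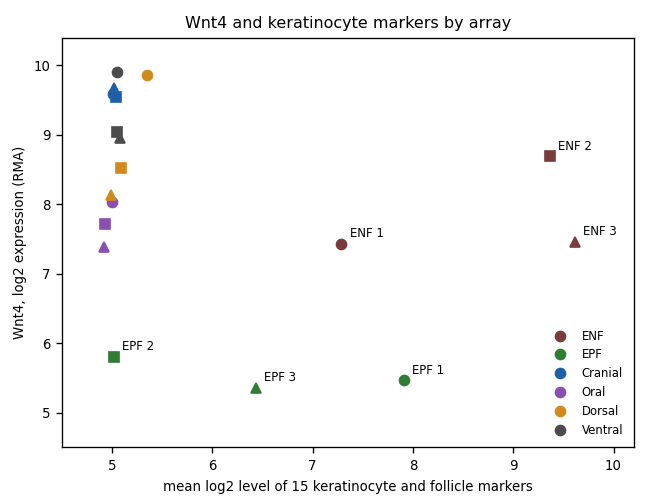
Wnt4 log2 expression (RMA) against the mean log2 level of 15 keratinocyte and hair follicle markers, 1 symbol an array, coloured by group. The EPF arrays lie lowest on the Wnt4 axis at marker means from 5.02 to 7.91, and the site arrays stand in a column near 5 with Wnt4 from 7.39 to 9.91.

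Among the site groups the F test called 4 of the 10 ligands, Wnt2b, Wnt4, Wnt5a and Wnt16, against 21.1% of all genes. Ventral and Dorsal, both En1Cre, differed in 0 of 10 by limma, against 0.0275% of all genes; at an unadjusted p under 0.05, Wnt2 (-0.37, adjusted p = 0.557) and Wnt9a (-0.57, adjusted p = 0.440) were lower in Ventral, a count of 2, against 8.55% of all genes. The 4 comparisons of a Wnt1Cre site with an En1Cre site share arrays and are not independent. Adipocyte markers moved with them, higher on every Dorsal and Ventral array (5.39 to 6.61) than on any Cranial or Oral array (4.92 to 5.07), and their part in these results was not tested. In them 4 ligands were called for Cranial against Dorsal (1 higher, 3 lower), against 18.7% of all genes (11.2% higher, 7.45% lower), and 2 for Oral against Dorsal (1 each way), against 16.8% (10.5% higher, 6.3% lower). For Oral against Ventral 3 were called (1 higher, 2 lower), against 14.6% (10.3% higher, 4.31% lower), and for Cranial against Ventral 2 (1 each way), against 17.9% (11.7% higher, 6.2% lower). With 10 genes, counts of 2 or 3 lie close to these shares. In the same 4 comparisons 60.0% to 70.6% of all called genes were higher in the Wnt1Cre group, and 48.0% to 51.9% after quantile normalization, under which no called ligand difference changed sign.

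Wnt16, a ligand known from bone and epidermis, was higher in Cranial than in the En1Cre sites. Its level was 7.19, 7.05 and 7.12 in Cranial, 6.97, 7.04 and 6.88 in Oral, 5.73, 6.80 and 6.57 in Dorsal, and 6.10, 6.32 and 6.49 in Ventral. EPF held 6.87, 5.92 and 6.72, and ENF 5.61, 6.87 and 6.41, ranges that overlapped Dorsal and Ventral. Cranial exceeded Dorsal by 0.76 ± 0.23 (adjusted p = 0.0408) and Ventral by 0.82 ± 0.23 (adjusted p = 0.0305). Without Dorsal 1 and Ventral 1 the difference from Dorsal was 0.44 (adjusted p = 0.0129). Both calls were lost under quantile normalization and without any 1 Cranial array, and the F test (adjusted p = 0.0411) called Wnt16 in 10 of 21 settings.

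Wnt2b, a relative of Wnt2, was near background in every group but Ventral. Its level was 4.77, 4.60 and 4.69 in Ventral, 4.43, 4.45 and 4.41 in Dorsal, 4.19, 3.83 and 4.35 in Oral, and 3.91, 4.05 and 4.01 in Cranial. EPF held 3.81, 3.72 and 4.02, and ENF 4.23, 4.31 and 3.79. Ventral and Dorsal overlapped neither each other nor the groups below them. Wnt2b was 0.69 ± 0.13 on the log2 scale below Ventral in Cranial (adjusted p = 0.00466, kept in all 15 settings in which it was tested) and 0.56 below it in Oral (adjusted p = 0.0146). It was 0.44 below Dorsal in Cranial (adjusted p = 0.0384) and 0.58 below Dorsal in EPF (adjusted p = 0.0409). The first of these calls was kept in 6 of 15 settings, and lost under quantile normalization and with the replicate block, and the second in 7 of 13. Differences of this size between dim signals say little about the amount of RNA.

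Wnt6 and Wnt10a, which lie next to each other on chromosome 1 and are known from epidermis and hair follicles, were called in 0 of the 8 comparisons. Wnt6 ranged from 5.64 to 6.57 over the 18 arrays and Wnt10a from 4.52 to 5.94. The F test gave adjusted p-values of 0.920 and 0.446. The other Wnt6 probe set, 1435980_x_at, was lower in Cranial than in Dorsal (-0.70, adjusted p = 0.0235), where the one used gave -0.08, and it was 1.17 higher in EPF than in ENF without passing (adjusted p = 0.166). Wnt10a was at 5.58, 5.94 and 5.84 in ENF, and EPF 1, the EPF array with the highest keratinocyte level, was at 5.93 against 4.71 and 5.23 in EPF 2 and 3.

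**Figure D4:**
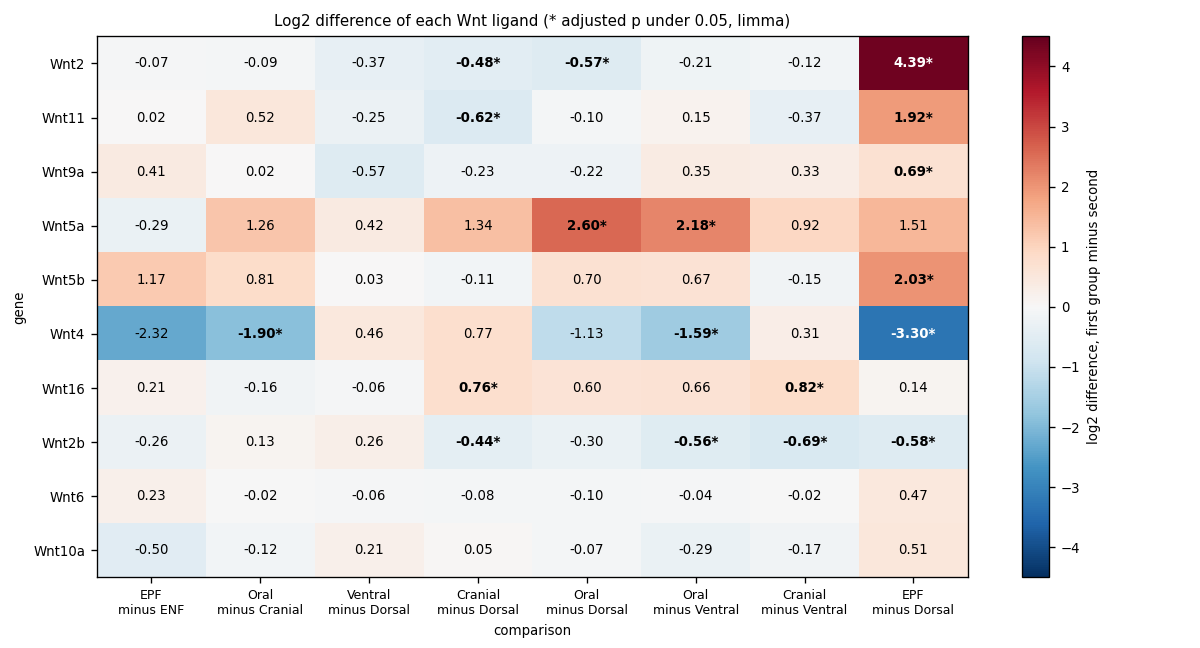
Log2 difference of each Wnt ligand (rows) in 8 comparisons (columns), first group minus second, with red for higher and blue for lower in the first group and an asterisk at an adjusted p under 0.05 (limma). The EPF minus Dorsal column holds 6 called ligands, from 4.39 for Wnt2 to -3.30 for Wnt4, and the EPF minus ENF and Ventral minus Dorsal columns hold 0.

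Over the 12 site arrays the ligands did not vary as a block. The lowest Pearson correlations were -0.77 between Wnt2b and Wnt16 and -0.75 between Wnt4 and Wnt5b, and the highest was 0.64 between Wnt2 and Wnt6. For the ligands called by the F test, the genes most like them over these arrays, among genes above the median level, were Prep (0.975), Ncs1 (0.973) and Ints1 (0.963) for Wnt5a, and Cd24a (0.954), Nrp2 (0.888) and Atp1b3 (0.873) for Wnt4. For Wnt16 they were Rab3il1 (0.980), Acvr2a (0.976) and Uvssa (0.975), and for Wnt2b Ttf1 (0.931), Aph1a (0.929) and Hoxc10 (0.909). The arrays share their groups, so these values describe the 12 arrays only.

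The rest of the pathway was read from 7 lists. In EPF against ENF and in Ventral against Dorsal, 0 members of any list passed. In the other 6 comparisons 92 of 456 differences of the 76 list members passed (20.2%), against 14.3% of all gene differences there. All 92 kept their direction under quantile normalization, and 74 were still called. Of the other Wnt ligands, 9 were measured, and only 2 differences passed: Wnt3a was lower in Cranial than in Dorsal (-0.43, adjusted p = 0.0498) and Wnt1 lower in Cranial than in Ventral (-0.43, adjusted p = 0.0411).

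Of 11 genes for secretion and release of ligands, 1 was higher in Cranial than in Dorsal, in Oral than in Dorsal and in Oral than in Ventral, each time Vps35, a retromer subunit that recycles the Wnt carrier Wls (1.32, 1.21 and 1.17), where 11.2%, 10.5% and 10.3% of all genes were higher. In Cranial against Ventral, Vps35 (1.27) and the glypican Gpc4 (0.50) were higher, against 11.7% of all genes. Wls itself was at 8.97 to 10.66 over all arrays and was not called. In EPF against Dorsal 3 were higher and 0 lower (10.9% and 5.94% of all genes), led by the glypican Gpc3 (2.33, adjusted p = 0.00998) and the Wnt protease Trabd2b (0.97, adjusted p = 0.0136).

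Among receptors, Ror1, a relative of the Wnt5a receptor Ror2, separated the sites. Its level was 7.04, 7.09 and 7.33 in Cranial, 7.07, 7.13 and 7.24 in Oral, 5.02, 4.70 and 5.21 in Dorsal, and 4.61, 5.03 and 5.31 in Ventral. EPF held 6.32, 7.31 and 7.15, and ENF 6.47, 6.70 and 6.30. Cranial and Oral lay above Dorsal and Ventral without overlap. Ror1 was higher in Oral than in Dorsal by 2.17 (adjusted p = 3.59e-05), in Cranial than in Dorsal by 2.18 (adjusted p = 5.27e-05) and in EPF than in Dorsal by 1.95 (adjusted p = 0.00659). Ror2 was called in 0 of the 8 comparisons.

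Of 8 co-receptors and alternative receptors, 2 were higher and 0 lower in Cranial than in Dorsal (11.2% and 7.45% of all genes), and 2 higher and 1 lower in Oral than in Dorsal (10.5% and 6.3%), where Ryk rose by 0.72 and Antxr1 fell by 0.67. Lrp6, a co-receptor of the beta-catenin branch, was higher than in Ventral in Cranial (1.06) and in Oral (1.14), and Ptk7 was lower in Cranial than in Ventral (-0.61). The counts against Ventral were 3 higher and 1 lower in Cranial (11.7% and 6.2% of all genes) and 2 and 0 in Oral (10.3% and 4.31%). In EPF against Dorsal 2 were higher, with Antxr1 among them (1.22), and 1 lower, Ptk7 (-1.10), against 10.9% and 5.94% of all genes.

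Of 10 Frizzled receptors, 3 were higher in Cranial than in Dorsal and 1 lower (11.2% and 7.45% of all genes), and 3 higher and 0 lower in Cranial than in Ventral (11.7% and 6.2%). Oral had 2 higher and 0 lower against each of Dorsal (10.5% and 6.3% of all genes) and Ventral (10.3% and 4.31%). Fzd7 was the gene common to these: it was at 9.23, 9.08 and 9.33 in Cranial, 8.77, 9.03 and 8.73 in Oral, 8.37, 6.60 and 7.90 in Dorsal, and 7.13, 7.24 and 7.46 in Ventral, with no overlap between the Wnt1Cre and En1Cre sites. It was higher by 1.59 (adjusted p = 0.0103) in Cranial and by 1.22 (adjusted p = 0.0332) in Oral than in Dorsal. In EPF against Dorsal, Fzd7 rose by 2.19 (adjusted p = 0.0171) and Fzd5 fell by 1.65 (adjusted p = 0.0153), where 10.9% of all genes were higher and 5.94% lower. Fzd1 was 1.01 lower in Oral than in Cranial (adjusted p = 0.0207), against 0.731% of all genes.

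**Figure D5:**
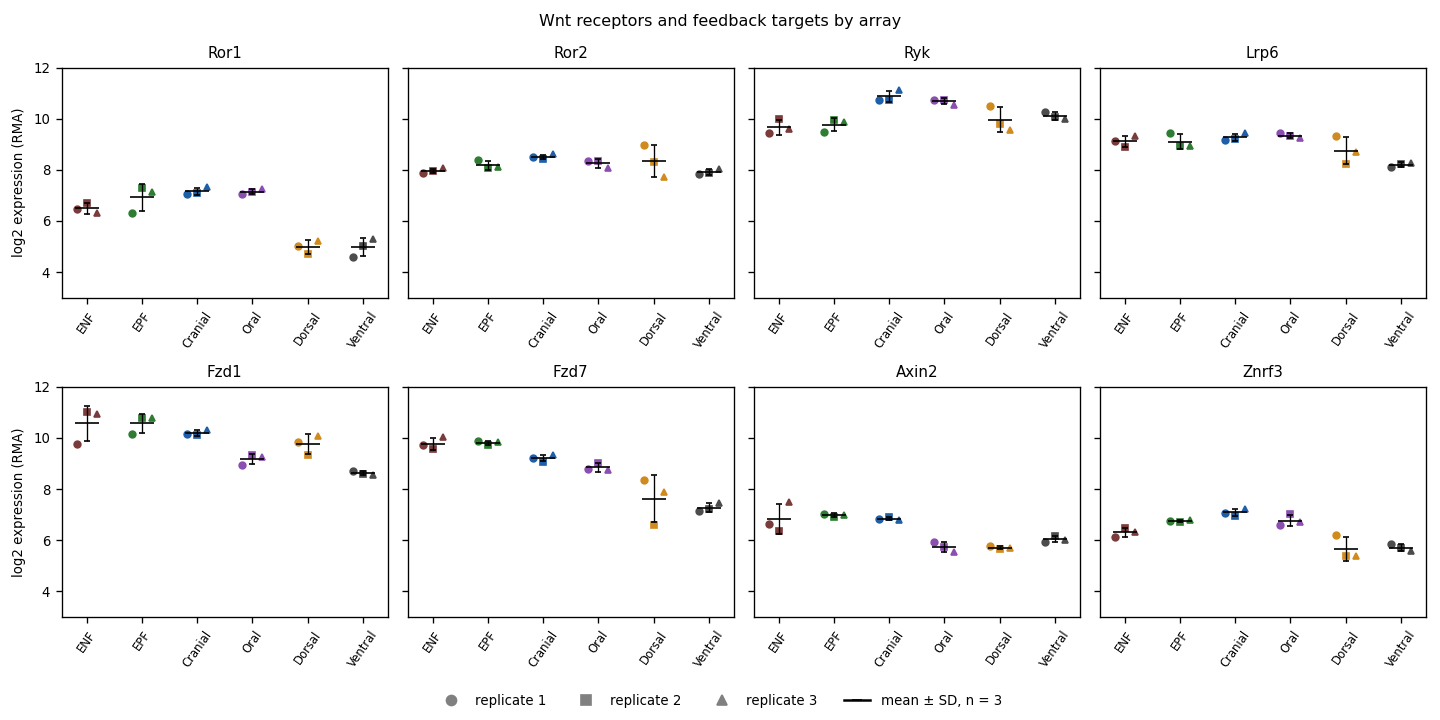
Log2 expression (RMA) of 4 receptors or co-receptors (Ror1, Ror2, Ryk, Lrp6), 2 Frizzled genes and the feedback targets Axin2 and Znrf3 on the 18 arrays, with the mean and SD of 3 arrays per group. Ror1 and Fzd7 are higher in Cranial and Oral than in Dorsal and Ventral, and Axin2 is higher in Cranial than in Oral.

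Of 13 intracellular genes of the beta-catenin branch, Apc, a part of the complex that degrades beta-catenin, was higher in Cranial than in Dorsal (0.86) and Axin1, of the same complex, lower (-0.70), in a count of 2 higher and 1 lower (11.2% and 7.45% of all genes). In EPF against Dorsal 2 were higher, the transcription factors Tcf7l2 (2.20) and Tcf7l1 (0.88), and 2 lower, the kinase Gsk3b (-1.05) and Axin1 (-0.97), against 10.9% and 5.94% of all genes. Oral had 1 higher and 0 lower against Dorsal (10.5% and 6.3% of all genes). Against Ventral, 2 were higher and 1 lower in Cranial (11.7% and 6.2%), and 2 higher and 0 lower in Oral (10.3% and 4.31%). Of 15 genes of the planar polarity and calcium branch, 3 were higher and 0 lower in Cranial and in Oral against Dorsal (11.2% and 10.5% of all genes higher, 7.45% and 6.3% lower), led in Oral by Daam2 (1.53, adjusted p = 0.00268) and Plcb4 (1.21). Against Ventral, 3 were higher and 0 lower in Cranial (11.7% and 6.2% of all genes), and 4 higher and 0 lower in Oral (10.3% and 4.31%). EPF had 3 higher and 0 lower against Dorsal (10.9% and 5.94%). In Oral against Cranial 1 was lower, Prickle1 (-0.93, adjusted p = 0.0287), against 0.731% of all genes.

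Of the 10 feedback targets, which Wnt signalling induces or which act on it, 3 were lower, 0 higher and 7 not called in Oral against Cranial, where 0.731% of all genes were lower. Lgr5, a receptor for R-spondins, was at 5.68, 5.53 and 5.15 in Oral and 10.49, 10.45 and 10.74 in Cranial, a difference of -5.11 (adjusted p = 0.00177). It was at 9.40, 10.54 and 10.66 in Dorsal and at 7.17, 10.01 and 9.88 in Ventral, where Ventral 1 stood apart again. Axin2 and the transcription factor Twist2 each fell by 1.10 from Cranial to Oral (adjusted p = 0.000653 and 0.000586). Axin2 was at 6.84, 6.89 and 6.78 in Cranial and 5.95, 5.73 and 5.55 in Oral, with no overlap.

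Against Dorsal, 3 feedback targets were higher and 0 lower in Cranial (11.2% and 7.45% of all genes), led by Znrf3 (1.44), which removes Frizzled receptors, and Axin2 (1.13, adjusted p = 0.000182). In Oral 2 were higher, Znrf3 (1.12) and Twist1 (0.68), and 2 lower, Lgr5 (-4.75) and Twist2 (-0.78), against 10.5% and 6.3% of all genes. In EPF 3 were higher, led by Axin2 (1.27, adjusted p = 0.00185), and 1 was lower, Lgr5 (-3.01, adjusted p = 0.00322), against 10.9% and 5.94% of all genes. Against Ventral, 3 were higher and 2 lower in Cranial (11.7% and 6.2% of all genes). The higher were led by Znrf3 (1.39) and Twist1 (0.98). The lower were Nkd2 (-0.83, adjusted p = 0.0203) and Rnf43 (-0.35, adjusted p = 0.0498). Oral had 2 higher and 3 lower against Ventral (10.3% and 4.31%), with Lgr5, Nkd2 and Twist2 lower.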

How the data were processed

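Gene expression was measured in 18 samples, 1 array each, in 6 groups of 3 taken from the sample titles. Per the submitters' processing notes the authors summarized the arrays by RMA, and they deposited log2 values for 45101 probe sets; other software, versions and the number of normalization runs were not given in the sources used here, and the log base was read from the values. After 64 control probe sets were set aside, 34945 of 45037 carried 1 gene symbol, 932 several and 9160 none, by the platform annotation; 34741 matched GRCm38.p6 by Entrez identifier. This left 18193 genes, each read from its brightest probe set on average.

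Differences were tested with limma 3.58.1 (lmFit, eBayes) in R 4.3.3, adjusted by Benjamini-Hochberg over all genes and called at an adjusted p under 0.05. EPF and ENF were fitted on 6 arrays, the 4 site groups on 12 arrays together, with a moderated F test, and EPF and Dorsal on 6 arrays. Levels of different genes were not compared, since probe sets differ in affinity. On simulated data, with 200 of 18193 genes changed by 2 log2 units, 87% were recovered for EPF against ENF with 6 false calls, and 93.5% for Oral against Cranial with 10. The simulated noise had 1 spread per gene in all groups of a fit. In the data the median SD per gene was 0.10 in Cranial, 0.13 in Oral, 0.14 in Ventral and 0.28 in Dorsal. It was 0.18 in EPF and 0.25 in ENF, so the simulated rates need not hold for these arrays. The members, lists and tests were chosen with earlier results of these data known. All 10 ligands are named. Of each pathway list at most 2 called genes per direction and comparison were to be named, largest first. In some comparisons fewer are named, or only the counts are given. Axin2 in Oral against Cranial was named after its value was seen. The 3 genes most like each ligand called by the F test are named too. Alternatives were a filter on dim genes, quantile normalization, the mean of probe sets, an intensity trend, array weights, replicate blocks, other sets of arrays in the fit and leaving out each array. Chosen after the data were seen were leaving out Dorsal 1 with Ventral 1, leaving out ENF 1 with EPF 2, and the keratinocyte covariate. Listed genes without a value were not used here.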

Additional observations from a re-analysis of the deposited data

How the results depend on the processing

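Of 80 ligand differences (10 genes in 8 comparisons), 18 were called, 5 of them in every setting in which they were tested: Wnt5a in Oral against Dorsal, Wnt2b in Cranial against Ventral, and Wnt2, Wnt4 and Wnt11 in EPF against Dorsal. None of the called differences changed sign.

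The count of called ligands moved with the setting, and so did the count over all 18193 genes. As reported, the all-gene count was 56 for EPF against ENF, 207 for Oral against Cranial and 5 for Ventral against Dorsal. It was 3393 for Cranial against Dorsal, 3065 for Oral against Dorsal, 2665 for Oral against Ventral and 3251 for Cranial against Ventral. With dim genes left out, which also removed some ligands from the test, the ligand count was 1 for EPF against ENF (0 as reported), 0 for Oral against Cranial (1), and 1 each for Cranial against Dorsal (4), Oral against Dorsal (2) and Cranial against Ventral (2). Over the 9096 genes kept, the counts were 56, 71, 2225, 2235 and 2114 in this order. Quantile normalization gave 2 for Cranial against Dorsal and 1 for Cranial against Ventral, with 3792 and 3718 of all genes. The intensity trend gave 1 for EPF against ENF (88 of all genes), and the mean of probe sets gave 4 for Oral against Dorsal (2751 of all genes). Array weights gave 2 for EPF against ENF, 4 for Oral against Cranial, 2 for Ventral against Dorsal, 8 for Cranial against Dorsal, 6 for Oral against Dorsal, 6 for Oral against Ventral (3), 5 for Cranial against Ventral and 9 for the F test (4). Over all genes they called 81, 1926, 952, 10113, 8963, 7724 and 8854 in this order, without the F test. Fits on only the 6 arrays compared gave 4 for Oral against Cranial, 0 for Cranial against Dorsal, 1 for Oral against Dorsal and 5 for Oral against Ventral. Of all genes, 1795, 1242, 1065 and 4925 were called in these fits. All 18 arrays in 1 fit gave 2 for EPF against ENF and 1 each for Cranial against Dorsal, Oral against Dorsal and Cranial against Ventral. The all-gene counts were 460, 2860, 2679 and 2832. Without Dorsal 1 and Ventral 1, a choice made after seeing their Wnt5a and Wnt4 values, the counts were 2 for Oral against Cranial, 1 for Ventral against Dorsal, 5 for Oral against Ventral, 5 for Cranial against Ventral and 7 for the F test. The all-gene counts rose as well, to 772, 177, 5028 and 5611 in this order, without the F test. The cause of these shifts was not tested.

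Leaving out 1 array at a time gave 0 to 2 for EPF against ENF, 0 to 0 for Oral against Cranial and for Ventral against Dorsal, 0 to 6 for Cranial against Dorsal, 1 to 4 for Oral against Dorsal, 0 to 3 for Oral against Ventral, 1 to 3 for Cranial against Ventral, 3 to 7 for EPF against Dorsal and 1 to 6 for the F test. Of all genes, 4 to 130 were called for EPF against ENF, 111 to 129 for Oral against Cranial and 3 to 161 for Ventral against Dorsal. The ranges were 1645 to 6148 for Cranial against Dorsal, 1770 to 5623 for Oral against Dorsal and 1420 to 2270 for Oral against Ventral. They were 1641 to 2350 for Cranial against Ventral and 1474 to 4061 for EPF against Dorsal.

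No clear pairing of the arrays by replicate number was seen. Same-numbered deviations from the group means correlated at -0.38 to 0.30 over the 15 pairs of groups, and in 0 of those pairs did all 3 numbers exceed 0.1. With 3 arrays a group, 1 unusual array can set these values, so the check cannot show whether groups came from the same mice. With the replicate block the counts were 0 for EPF against ENF, 1 for Oral against Cranial, 0 for Ventral against Dorsal, 3 for Cranial against Dorsal, 3 for Oral against Dorsal, 3 for Oral against Ventral, 2 for Cranial against Ventral, 4 for EPF against Dorsal and 5 for the F test. Over all genes it called 21, 170, 2, 2931, 2760, 2355, 2748 and 2351 in this order, without the F test. Signal over background limits Wnt2b in 5 of 6 groups.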
